A study of Rattus norvegicus with 6 samples.

Results

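The 10 genes described here encode chaperones, folding enzymes and quality-control proteins of the endoplasmic reticulum (ER), together with Xbp1, a transcription factor that induces many of them: Hspa5, Hsp90b1, Hyou1, Dnajb9, Dnajc3, Sdf2l1, Pdia4, Pdia6, Xbp1 and Herpud1. They were chosen by name as ER chaperones and Xbp1 targets, with earlier results of these data known. For each, the probe set annotated to that gene alone was taken, and all 10 had exactly 1 such probe set, out of 18166 genes named in this way. Cerebral arteries of male rats were profiled on 6 Affymetrix arrays. 3 arrays, numbered 1, 4 and 5, carried RNA from vessels collected 6 hours after subarachnoid haemorrhage (SAH), in which blood enters the cerebrospinal fluid space, and 3 arrays, numbered 6, 7 and 8, held arteries of sham-operated rats. The labels name no time after surgery for the sham group and no strain, age, genotype or further treatment for either group, and they do not say whether each array came from another animal, so p-values reflect only the spread among the samples, which may be technical. All values are log2 expression values as deposited, and a difference is SAH minus sham on that scale.

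Proteins that enter the secretory pathway fold in the ER with the help of these chaperones. When unfolded proteins accumulate, 3 membrane sensors respond. IRE1 (gene Ern1) splices the Xbp1 transcript so that it encodes an active factor, ATF6 is cut to release another factor, and PERK (gene Eif2ak3) slows translation while favouring ATF4 and CHOP (gene Ddit3). The ATF6 and Xbp1 arms raise chaperones and degradation factors, and the PERK arm raises genes of amino acid supply and cell death. Arterial smooth muscle, endothelial cells and fibroblasts all secrete matrix or signalling proteins and carry this machinery.

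None of the 10 genes passed the test for a difference after SAH. limma's test, adjusted by Benjamini-Hochberg across the whole table, called none of them at an adjusted p under 0.05, and none had an unadjusted p under 0.05 either. Over all 18166 genes, 0.963% were called higher and 0.33% called lower, so a count of 0 among 10 is near this background and is no result about these genes. At an unadjusted p under 0.05 the share of all genes was 18.6%. The member differences ran from -0.24 for Hyou1 to 0.24 for Dnajb9, with a median of -0.14, against a median of -0.01 over all genes. The 95% intervals of the 10 differences (limma, unadjusted for the number of genes) all lay between -0.52 and 0.69, so a change above 1.61-fold in the mean of any member lay outside its interval.

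Some of the genes hold, near their start sites, the elements through which ATF6 and Xbp1 are known to act. The genes were picked as ER chaperones and Xbp1 targets, so matches at them are no independent evidence. The shares of all windows are given for scale only. RefSeq promoter windows of the GRCr8 rat assembly, from 250 bases before to 50 bases after the annotated start, were found for 9 of the 10 genes, with 2 windows for Hyou1. Both strands were searched for the ER stress response element ERSE (CCAAT, any 9 bases, CCACG), for ERSE-II (ATTGG, any 1 base, CCACG), for the unfolded protein response element TGACGTGG, and for the half-site CCACG alone, which is part of the first 2 elements and, read on the other strand, overlaps the third. ERSE was found at Hspa5, Hsp90b1, Dnajc3 and Xbp1 and in 0.0657% of all 33469 windows. ERSE-II was found at Herpud1 and Hyou1 and in 0.0508% of windows, and TGACGTGG at Hyou1 and in 0.595%. The half-site lay in at least 1 window of each of the 9 genes and in 31.6% of all windows. For Dnajb9, Sdf2l1 and Pdia4 none of the 3 longer motifs matched these letters in this window. A match is a description of the sequence, and binding was not measured.

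The windows of 5 of these genes follow, 5′ to 3′ on the strand of the gene. Capitals mark the CCAAT and CCACG parts of ERSE on either strand, the whole of ERSE-II and the whole of TGACGTGG. Hspa5 and Xbp1 show 1 ERSE near the start site, Hsp90b1 shows 2 in opposite orientations, Herpud1 shows ERSE-II, and Hyou1 shows ERSE-II at 2 places, the upstream one overlapping TGACGTGG.
Hspa5 (chr3:38452766-38453065, plus strand): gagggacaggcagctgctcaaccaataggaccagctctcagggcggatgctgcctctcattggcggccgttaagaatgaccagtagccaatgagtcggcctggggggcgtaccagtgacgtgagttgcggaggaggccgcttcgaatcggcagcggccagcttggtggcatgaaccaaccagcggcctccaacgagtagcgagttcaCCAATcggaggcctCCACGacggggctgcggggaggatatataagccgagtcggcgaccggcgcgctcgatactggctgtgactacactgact
Xbp1 (chr14:84604373-84604672, plus strand): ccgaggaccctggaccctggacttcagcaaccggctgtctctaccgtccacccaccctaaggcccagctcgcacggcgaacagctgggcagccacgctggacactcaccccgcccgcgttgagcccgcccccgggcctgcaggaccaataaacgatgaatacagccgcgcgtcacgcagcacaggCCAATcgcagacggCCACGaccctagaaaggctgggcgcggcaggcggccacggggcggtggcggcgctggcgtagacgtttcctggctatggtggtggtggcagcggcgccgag
Hsp90b1 (chr7:23012244-23012543, minus strand): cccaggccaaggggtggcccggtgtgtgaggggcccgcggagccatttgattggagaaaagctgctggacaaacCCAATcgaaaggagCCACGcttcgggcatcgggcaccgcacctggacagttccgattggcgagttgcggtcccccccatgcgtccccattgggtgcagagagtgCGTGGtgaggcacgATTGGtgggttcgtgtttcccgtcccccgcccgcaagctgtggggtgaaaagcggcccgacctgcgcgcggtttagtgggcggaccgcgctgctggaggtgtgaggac
Herpud1 (chr19:10614658-10614957, minus strand): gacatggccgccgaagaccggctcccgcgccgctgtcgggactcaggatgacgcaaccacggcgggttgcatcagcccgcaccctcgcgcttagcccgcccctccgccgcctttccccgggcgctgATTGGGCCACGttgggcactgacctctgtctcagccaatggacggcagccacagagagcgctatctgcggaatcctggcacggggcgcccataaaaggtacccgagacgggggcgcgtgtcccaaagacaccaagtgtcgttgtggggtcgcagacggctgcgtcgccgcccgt
Hyou1 (chr8:53602632-53602931, plus strand): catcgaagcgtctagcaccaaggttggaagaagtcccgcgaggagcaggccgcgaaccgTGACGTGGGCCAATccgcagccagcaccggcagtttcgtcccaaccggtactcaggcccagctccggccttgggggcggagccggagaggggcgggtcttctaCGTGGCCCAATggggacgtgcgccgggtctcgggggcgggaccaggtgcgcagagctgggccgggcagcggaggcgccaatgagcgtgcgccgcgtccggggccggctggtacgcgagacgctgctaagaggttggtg

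**Figure D1:**
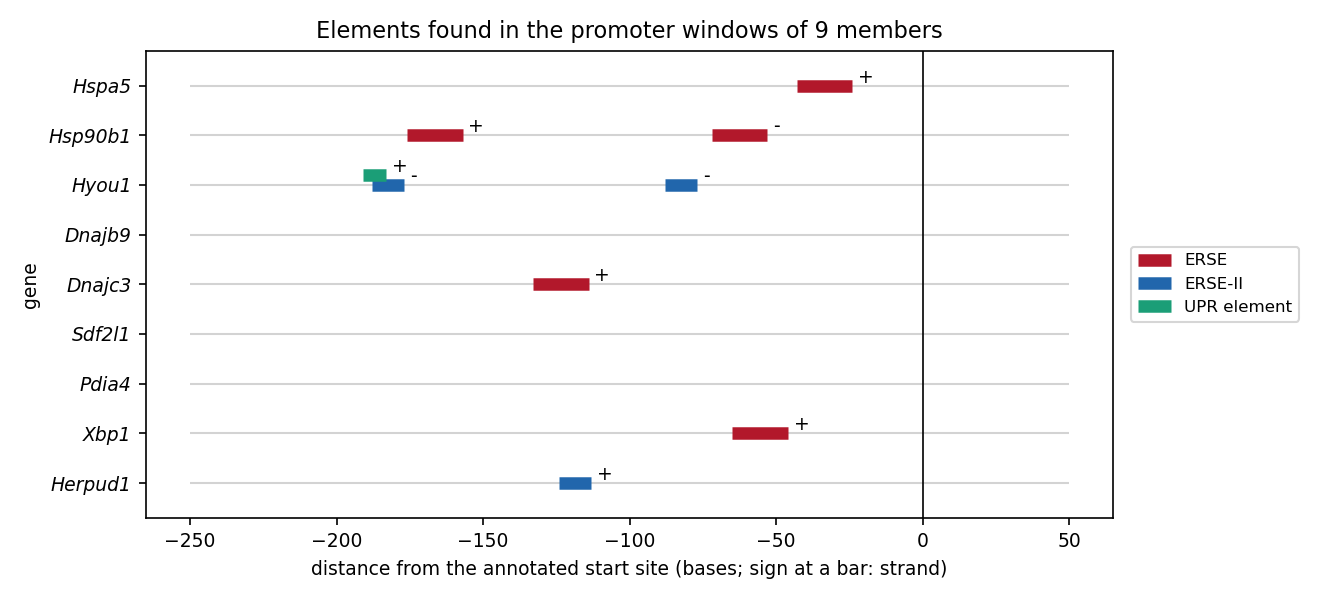
Positions of ERSE, ERSE-II and the unfolded protein response element in the promoter windows of 9 genes, as distance in bases from the annotated start site, with the strand of each match beside its bar. The ERSE of Hspa5 spans positions -43 to -25 and that of Xbp1 positions -65 to -47, while Dnajb9, Sdf2l1 and Pdia4 have no bar.

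Among the chaperones, Hspa5 encodes BiP, the Hsp70 of the ER, which also holds the sensors inactive when folding demand is low. Its values were 13.18, 12.88 and 13.01 on SAH arrays 1, 4 and 5, against 12.92, 12.95 and 13.03 on sham arrays 6, 7 and 8, the order kept for each gene below. SAH array 1 was the highest and SAH array 4 the lowest of the 6, so the groups overlapped on both sides. The difference was 0.06 ± 0.11 (SE, n = 3 each; 95% interval -0.20 to 0.32; limma adjusted p = 0.861), or 1.04-fold. Its direction turned without SAH array 1, to -0.02.

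Hsp90b1 encodes GRP94, the Hsp90 of the ER, whose clients include integrins and Toll-like receptors. It read 11.55, 11.19 and 11.27 in the SAH arrays against 11.56, 11.48 and 11.60 in the sham arrays. SAH array 1 lay within the sham range and the other 2 SAH arrays lay below it. The difference was -0.21 ± 0.12 (SE, n = 3 each; 95% interval -0.49 to 0.08; limma adjusted p = 0.505). Without SAH array 1 it was -0.31 (limma adjusted p = 0.184, the lowest over all alternatives, which ran up to 0.794), and leaving out other arrays gave values up to -0.13.

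Hyou1 encodes GRP170, a large chaperone that exchanges nucleotide on BiP. SAH arrays read 10.04, 9.79 and 9.81, and sham arrays read 10.12, 10.13 and 10.10. It was the only one of the 10 whose groups did not overlap, with all 3 SAH arrays below all 3 sham arrays, a pattern seen in 15.4% of all genes, while the opposite pattern was seen in 11.4%. Its 3 sham values spanned only 0.03. The difference of -0.24 ± 0.11 (SE, n = 3 each; 95% interval -0.49 to 0.01) had the smallest p of the 10 genes, at an unadjusted 0.0574 and a limma adjusted p of 0.366. Leaving out each array in turn gave differences from -0.32 to -0.19, and limma's adjusted p ran from 0.160, without SAH array 1, to 0.767 over all alternatives.

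Dnajb9 and Dnajc3 encode the J-domain co-chaperones ERdj4 and P58IPK, which stimulate BiP, and Dnajb9 is a well-known target of spliced Xbp1. Dnajb9 read 10.89, 10.38 and 10.26 on SAH and 10.16, 10.17 and 10.48 in sham arrays. SAH array 1 stood above the other 5, and the remaining SAH arrays lay within the sham range. The difference was 0.24 ± 0.19 (SE, n = 3 each; 95% interval -0.20 to 0.69; limma adjusted p = 0.622), the widest interval of the 10, and it was 0.05 without SAH array 1 and up to 0.37 without other arrays. Dnajc3 read 10.02, 9.81 and 9.76 in SAH and 9.93, 9.95 and 10.19 in sham arrays, with SAH array 1 inside the sham range and the others below it (difference -0.16 ± 0.12 SE, n = 3 each; limma adjusted p = 0.636). Without SAH array 1 the Dnajc3 difference was -0.24, and without sham array 8 it was -0.07.

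Sdf2l1 encodes a soluble ER protein that works with J-domain co-chaperones of BiP. It read 7.78, 7.62 and 7.98 in SAH and 8.00, 7.90 and 7.95 in sham arrays. SAH arrays 1 and 4 lay below the sham range and SAH array 5 within it, the only member in which SAH array 1 was not the highest of its group. The difference was -0.16 ± 0.12 (SE, n = 3 each; 95% interval -0.44 to 0.12; limma adjusted p = 0.610). It was -0.07 without SAH array 4 and -0.25 without SAH array 5.

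The disulfide isomerases Pdia4 (ERp72) and Pdia6 (P5) form and rearrange the disulfide bonds of folding proteins. Pdia4 read 10.45, 9.98 and 10.05 in SAH and 10.28, 10.23 and 10.47 in sham arrays, and Pdia6 read 10.38, 10.09 and 10.14 against 10.24, 10.26 and 10.46. Both had the same order of arrays within each group apart from sham arrays 6 and 7, with SAH array 1 inside the sham range and SAH arrays 4 and 5 below it. The differences were -0.17 ± 0.15 for Pdia4 and -0.12 ± 0.12 for Pdia6 (SE, n = 3 each; limma adjusted p = 0.682 and 0.716). Leaving out each array in turn gave -0.31 to -0.08 for Pdia4 and -0.21 to -0.05 for Pdia6, with the largest sizes without SAH array 1. A separate gene named Pdia6l1 carries its own probe set, and how much signal the Pdia6 and Pdia6l1 probe sets share is not known here.

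Xbp1 encodes the factor itself. It read 12.60, 12.25 and 12.43 in SAH and 12.14, 12.19 and 12.27 in sham arrays. SAH arrays 1 and 5 stood above the sham range and SAH array 4 just inside it. The difference was 0.22 ± 0.12 (SE, n = 3 each; 95% interval -0.06 to 0.51; limma adjusted p = 0.457), or 1.17-fold, and it stayed between 0.14 and 0.31 as settings changed. One probe set gives 1 value for the gene, so the spliced and unspliced forms of the transcript, on which the activity of the factor depends, were not told apart.

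Herpud1 encodes a membrane protein that helps to send misfolded proteins from the ER to the proteasome. It read 10.01, 10.01 and 9.72 in SAH and 10.01, 9.97 and 9.96 in sham arrays. SAH array 5 stood alone below the others, and SAH arrays 1 and 4 read marginally above all sham arrays. The difference was -0.07 ± 0.11 (SE, n = 3 each; limma adjusted p = 0.852), and it turned to 0.03 without SAH array 5.

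**Figure D2:**
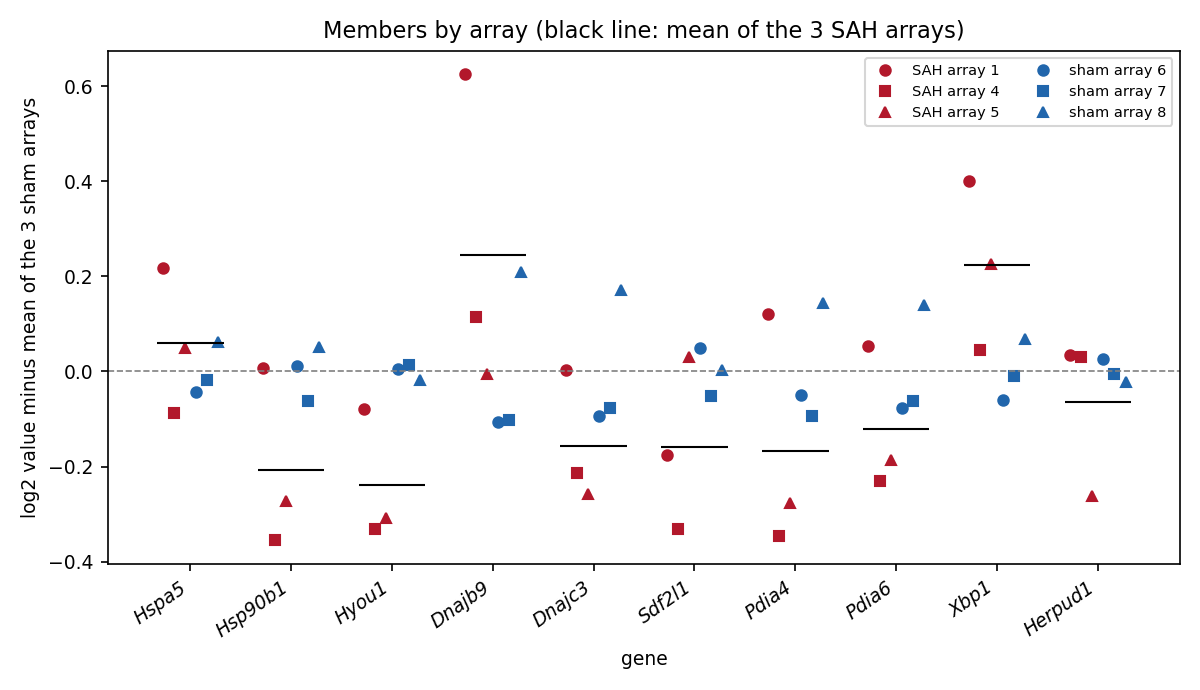
Value of each gene on each array, as log2 value minus the mean of its 3 sham arrays (vertical axis), with SAH arrays in red, sham arrays in blue and a black line at the mean of the 3 SAH arrays. SAH array 1, the red circle, is the highest SAH array for 9 of the 10 genes, and Hyou1 is the only gene whose red and blue points do not overlap.

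Spread within the groups was as follows. The SD over 3 arrays was larger in the SAH group for 9 of the 10 genes, all but Dnajc3, and for 62.8% of all genes. SAH array 1 read above SAH arrays 4 and 5 for 9 of the 10, all but Sdf2l1, and for 37.7% of all genes. As a median over the 10 genes, the deviation from the sham mean was 0.04, -0.22 and -0.22 on SAH arrays 1, 4 and 5, whereas sham arrays 6, 7 and 8 stood at -0.05, -0.06 and 0.06. Over the 6 arrays Pdia4 and Pdia6 followed each other most closely (Pearson r = 0.977), Hspa5 followed Xbp1 with r = 0.881, and Sdf2l1 and Herpud1 ran apart (r = -0.453). These values describe likeness over 6 arrays that differ in group and in the level of cell type markers, and the part of either in them was not tested.

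**Figure D3:**
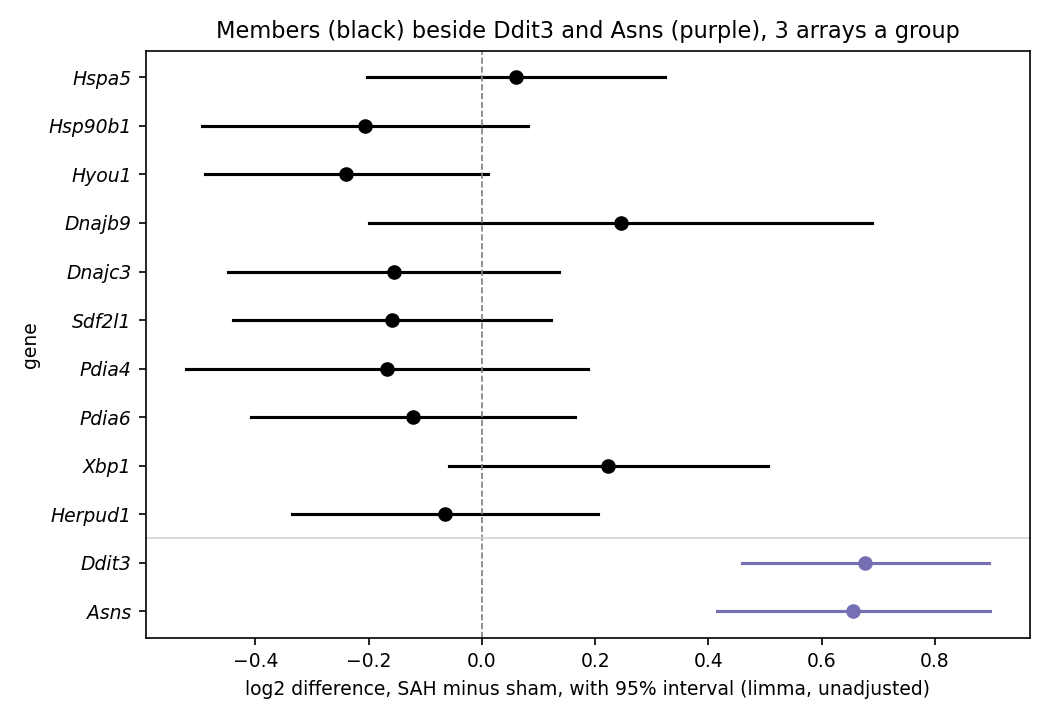
Difference between groups (SAH minus sham, log2) with its 95% interval for each of the 10 genes in black, and for Ddit3 and Asns in purple. All 10 black intervals include 0, while those of Ddit3 and Asns lie above it. Ddit3 and Asns are the genes called in their list, so their intervals were bound to exclude 0 and the contrast is no test.

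Of 11 measured genes of the PERK, ATF4 and CHOP list 2 were called higher, Ddit3 and Asns, none lower and 9 did not pass. Over all genes 0.963% were called higher and 0.33% lower. In the list 10 differences lay above 0 and 1 below, with a median of 0.27. That median ran from 0.15, without SAH array 5 or with a neutrophil covariate, to 0.55, without sham array 8. Ddit3 read 9.44, 9.55 and 9.56 in SAH and 8.89, 8.81 and 8.82 in sham arrays (difference 0.68 ± 0.09 SE, n = 3 each; limma adjusted p = 0.0342). Trib3, a pseudokinase induced by CHOP, differed by 1.05 ± 0.19 (SE), and Chac1, a glutathione-degrading enzyme, by 0.74 ± 0.18 (limma adjusted p = 0.0739 and 0.134). Atf4, the factor upstream of these genes, which was named after its values were seen, differed by 0.26 ± 0.11 (limma adjusted p = 0.338). The deviation of Ddit3 from its sham mean less that of Hspa5 was 0.38, 0.80 and 0.67 on SAH arrays 1, 4 and 5, against 0.09, -0.01 and -0.08 on sham arrays 6, 7 and 8. The group means differed by 0.62. Set against Hyou1 in the same way, Ddit3 differed by 0.92. Ddit3 is a called gene and both pairs were chosen after their values were seen, so a gap was bound to appear. These values are a description and serve as no test. The count of called genes in the list depended on single arrays. It was 1 without SAH array 1 and 0 without any one of the other 5 arrays or with a neutrophil covariate. It was 1 with quantile normalization repeated or array medians subtracted. With dim probe sets left out it was 3, the third being Trib3, but that setting called 672 of 11323 genes, against 235 of 18166. Trib3 averaged 7.37 in sham arrays, near the array medians, so its place above the filter rested mainly on the SAH arrays. The difference of Ddit3 less Hspa5 lay between 0.53 and 0.73 over the settings, again as a description.

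The other genes of ER folding and transport had no called member in either direction. Over all genes 0.963% were called higher and 0.33% lower, so the lack of calls is near this background and is no result about these lists. Of 20 other folding factors 14 had differences below 0 and 6 above, with a median of -0.10. Selenom, a selenoprotein of the ER, differed by -0.45 ± 0.13 (SE), Fkbp14, a prolyl isomerase for collagens, by -0.77 ± 0.23, and Dnajc10, a disulfide reductase, by -0.29 ± 0.10 (limma adjusted p = 0.197, 0.211 and 0.245). Uggt1, the folding sensor for glycoproteins, differed by 0.18 ± 0.10 (limma adjusted p = 0.459). In this list 5 genes lay lower and 1 higher in all SAH than in all sham arrays, where 15.4% of all genes lay lower and 11.4% higher.

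For ER-associated degradation, 16 genes were measured, with 8 differences on either side of 0 and a median of 0.01. Vcp, the ATPase that pulls proteins out of the ER membrane, differed by 0.37 ± 0.12 (SE; limma adjusted p = 0.228), and its cofactor Nploc4 by 0.24 ± 0.13 (adjusted p = 0.450). Edem2, a mannosidase-like factor, differed by 0.21 ± 0.12 and Os9, a lectin, by -0.17 ± 0.10. Of the 15 genes for the translocon, signal peptidase and vesicle coat, 4 lay higher and 2 lower without overlap (11.4% and 15.4% of all genes), with a median of 0.04. Ssr3, a translocon-associated subunit, differed by 0.45 ± 0.12 (SE), Sec61g, a channel subunit, by 0.30 ± 0.10, the coat gene Sec23b by 0.36 ± 0.12 and the signal peptidase gene Sec11a by 0.21 ± 0.10 (limma adjusted p = 0.170, 0.244, 0.253 and 0.395).

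The sensors and factors that act upstream of these genes spread in both directions. Of 13 measured, 4 lay higher and 2 lower in all SAH arrays (11.4% and 15.4% of all genes), and the median was 0.02. None was called, where 0.963% of all genes were called higher and 0.33% lower. Creb3l1, a membrane-bound factor related to ATF6, read 10.97, 11.07 and 11.19 in SAH and 10.28, 9.97 and 10.50 in sham arrays (difference 0.83 ± 0.15 SE, n = 3 each; limma adjusted p = 0.0767). Atf6 read 11.71, 11.84 and 11.86 against 11.29, 11.46 and 11.30, without overlap (difference 0.45 ± 0.10 SE, n = 3 each; limma adjusted p = 0.118). Mbtps1 and Mbtps2 encode the proteases that cut ATF6, and they differed by -0.51 ± 0.12 and 0.28 ± 0.10 (SE; limma adjusted p = 0.129 and 0.264). With dim probe sets left out, Creb3l1 and Atf6 were called higher, and Creb3l1 also with the trend and robust options of eBayes. Without SAH array 1 the related gene Creb3l2, named after its values were seen, was called lower. In this order, these settings called 672 of 11323, 363 of 18166 and 670 of 18166 genes, against 235 of 18166. The kinase sensors Ern1 and Eif2ak3, named for their role after their values were seen, differed by 0.15 ± 0.13 and 0.04 ± 0.14 (SE; limma adjusted p = 0.672 and 0.936).

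Chaperones outside the ER were also without a called gene, near the background of 0.963% called higher and 0.33% called lower over all genes. Of 11 measured heat shock genes of the cytosol and mitochondria, 4 lay lower without overlap (15.4% of all genes), none higher (11.4%), and the median was -0.02. Hspe1, the mitochondrial co-chaperonin, differed by -0.46 ± 0.12 (SE), Hsph1 by -0.39 ± 0.16, the small heat shock gene Hspb1 by -0.26 ± 0.13 and the co-chaperone gene Dnajb1 by 0.25 ± 0.14 (limma adjusted p = 0.151, 0.338, 0.415 and 0.465). Hspa1a, Hspa1b and Hsp90aa1 were not analysed here, since no probe set named one of them alone.

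**Figure D4:**
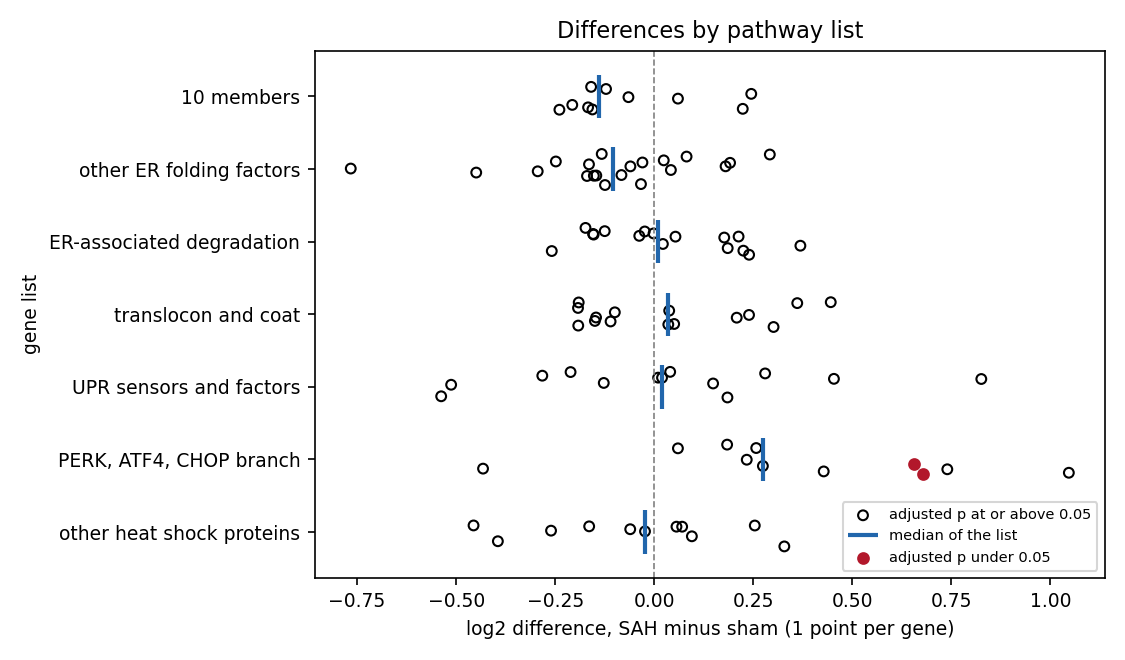
Difference between groups (SAH minus sham, log2) for every measured gene of 7 lists, 1 point per gene with vertical jitter, a blue bar at the median of each list and filled red points at an adjusted p under 0.05. The only red points are Ddit3 and Asns in the PERK, ATF4 and CHOP list, and the 10 members all lie between -0.24 and 0.24.

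The tissue held several cell types, and in such samples fewer cells of a type and less RNA per cell cannot be told apart. Defining markers of the artery were bright: Myh11 of smooth muscle averaged 12.56 in SAH and 12.96 in sham arrays, and Cdh5 of endothelium 11.66 and 11.05, although 5 of the 7 endothelial markers had differences below 0 (Tek -0.50, Vwf -0.29). All 7 smooth muscle markers had differences below 0, with a median of -0.26, and 1 of them, Smtn, was called lower. No marker of endothelium (7 measured, median -0.29) or fibroblasts (8 measured, -0.12) was called. The same held for those of monocytes and macrophages (12 measured, -0.09) and of brain and choroid plexus (9 measured, 0.12). Over all genes 0.963% were called higher and 0.33% lower. The monocyte and macrophage markers spread in both directions, with 6 differences above 0 and 6 below. In limma's test 5 were lower and 1 higher at an unadjusted p under 0.05, a level reached by 18.6% of all genes. Cd163 differed by -1.29 and Mrc1 by -1.24. Ptprc, Itgam and Lyz2, which neutrophils also express, differed by 0.93, 0.56 and 0.42, and Cd68, Cd14 and Aif1 by 0.37, 0.25 and 0.21. With dim probe sets left out, Cdh5 was called higher and Csf1r, a macrophage marker, lower. Cdh5 was also called higher with the trend and robust options and at an adjusted p under 0.10. In this order, these settings called 672 of 11323, 363 of 18166 and 530 of 18166 genes, against 235 of 18166. Neutrophil markers (13 measured, none called) varied widely. Their median deviation from the sham mean was 0.79, 0.87 and 2.28 on SAH arrays 1, 4 and 5 and -0.70, -0.68 and 1.40 on sham arrays 6, 7 and 8, and their mean level ran from 8.73 to 9.67 in SAH and from 7.38 to 9.19 in sham arrays. With that mean as a covariate the 10 differences ran from -0.24 to 0.20, with a median of -0.20, and none was called. Plasma cells, which express Xbp1 and ER chaperones strongly, had 8 measured markers with a median of 0.02 and a mean level of 7.48 to 7.72 in SAH and 7.33 to 7.40 in sham arrays. Without SAH array 1, a setting that called 670 of 18166 genes, 2 of the 8 plasma cell markers, Jchain and Prdm1, were called higher. Jchain averaged 6.45 in SAH and 5.73 in sham arrays, below the array medians. Jchain differed by 0.72 ± 0.22 (SE; limma adjusted p = 0.201) and Mzb1 by -0.06 ± 0.13, and their part in the Xbp1 value was not tested.

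**Figure D5:**
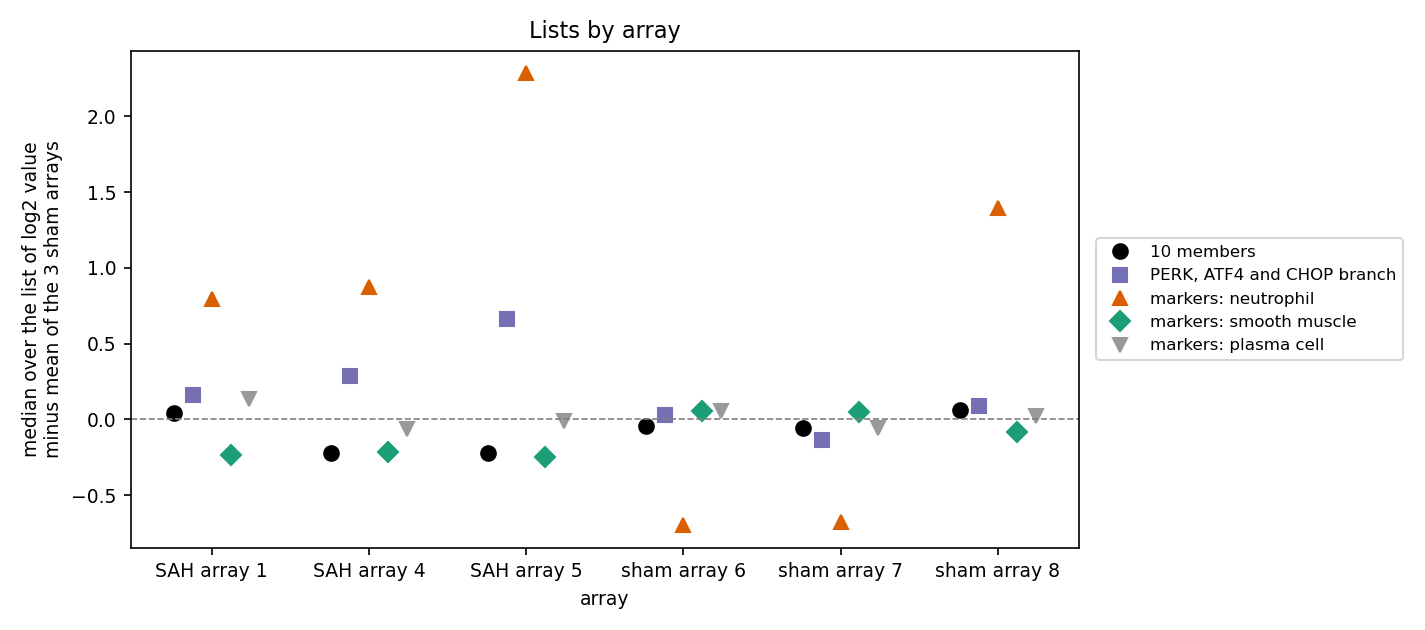
Median over each list of the log2 value minus the mean of the 3 sham arrays, by array, for the 10 genes, the PERK, ATF4 and CHOP list and 3 marker lists; points are set side by side for clarity. The median of the 10 genes stays between -0.22 and 0.06 on all 6 arrays, while that of the neutrophil markers runs from -0.70 to 2.28.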

How the data were processed

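Per the labels, total RNA of cerebral arteries was biotin-labelled and hybridised to 6 arrays. The authors deposited log2 values made with RMA in Affymetrix Expression Console 1.1.2, per the submitters' processing notes; for settings and genome build: not given in the sources used here. RMA commonly equalises the distributions of arrays, so a general change in RNA amount cannot be seen (array medians 7.31 to 7.37), and it compresses differences of dim and of very bright probe sets. The number of arrays limits the precision.

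Of 36685 probe sets 190 controls were set aside. GEO's platform annotation, with symbols updated through the RefSeq table of GRCr8, gave 1 gene for 18511 probe sets, several for 575 and no name for 17409. Each gene was represented by its probe set with the highest mean. limma 3.58.1 (R 4.3.3; lmFit, eBayes, two-sided, no covariate) compared the groups over 36495 probe sets, with Benjamini-Hochberg adjustment; genes were called at an adjusted p under 0.05. The fit was checked on simulated data. The members and lists were chosen with earlier results of these data known. All 10 members are named, with up to 4 genes of the smallest p from each pathway list and the 5 genes most like the members and Hspa5; the cell type markers printed, and other genes marked so, were picked once their values were known. Alternatives were a filter on dim probe sets, repeated quantile normalization, median subtraction, array weights, the trend and robust options of eBayes, other thresholds, the most variable probe set, a neutrophil covariate and each array left out.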

Additional observations from a re-analysis of the deposited data

How the results depend on the processing

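No member was called under any of the 15 alternatives run, which included an adjusted p under 0.10 and the omission of each array, although the number of genes called over the whole table ran from 23 with the neutrophil covariate to 672 with dim probe sets left out, against 235. The median difference over the members was -0.14 and lay between -0.18 and -0.07 as arrays were left out. Single members kept their direction except Hspa5 without SAH array 1 (-0.02) and Herpud1 without SAH array 5 (0.03) or with the neutrophil covariate (0.02). Each member has 1 probe set, so the choice of probe set changed none of them. No paired analysis was possible because the SAH and sham arrays share no replicate numbers. Signal over background could not be examined, as the values carry no detection call.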

Other observations

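The genes whose values most resembled the mean of the 10 members over the 6 arrays, by Pearson correlation, were Arhgap35 (r = 0.989), Dbn1 (0.987), Ppp2r3c (0.984), Lrr1 (0.978) and Sirt2 (0.976). None of these 5 is in the ER lists used here, and their differences ran from -0.09 to -0.04 with adjusted p of limma's test at or above 0.763. Those most like Hspa5 were Fam222a and Cntnap5b (r = 0.987 each), Or52ab2b (0.984), Leo1 (0.983) and Mtpap (0.982). With 18166 genes ranked over 6 arrays, values of this size describe likeness on these arrays only.

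Pdia6l1, a gene whose name places it with Pdia6, was chosen for mention after its values were seen. Its values were 7.68, 7.61 and 7.81 on SAH arrays 1, 4 and 5, against 7.43, 7.46 and 7.42 on sham arrays 6, 7 and 8. All SAH arrays lay above all sham arrays, a pattern seen in 11.4% of all genes. Its difference of 0.26 ± 0.10 (SE, n = 3 each; limma adjusted p = 0.280) did not pass, while that of Pdia6 was -0.12 ± 0.12.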
